A study of Mus musculus with 8 samples.

Results

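The BMP and TGF-beta superfamily was followed as 45 named genes: ligands, the protease Bmp1, receptors, SMAD proteins, ID target genes, antagonists and latent TGF-beta binding proteins. They were found by symbol in the authors' deposited gene table, which holds 17631 genes. Of the 45 genes, 44 have a row, and Bmpr1b is not analysed here. The members were chosen as a pathway and not for their values in these samples, although earlier results of these data were known when the list was made. All 44 are protein-coding.

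RNA was sequenced from the apical, root-forming part of lower first molars of C57BL/6 mice at postnatal day 7.5. The control group was Runx2fl/fl, with 2 floxed copies of the gene for the bone transcription factor RUNX2, and the mutant group was Gli1-CreERT2;Runx2fl/fl, with 4 libraries each. Gli1-CreERT2 is a tamoxifen-inducible recombinase driven from Gli1, a hedgehog target that marks progenitor cells of the growing root, so deletion is confined by design to those cells and their descendants. The labels give the same tamoxifen treatment to all 8 libraries, 1.5 mg per 10 g of body weight at postnatal day 3.5 into the peritoneum. The control animals carry no recombinase, so what the driver does cannot be told apart from what losing Runx2 does. The labels do not say whether a library is 1 animal or a pool. Each p-value thus rests on the variation among these 8 libraries alone, some of which may be technical.

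The deposited table holds 1 mean per group and no value per library. Each level below is therefore the authors' group mean of normalised signal, and no standard deviation, count of libraries with a given direction or depth per library can be stated. Fold sizes, p-values and adjusted p-values come from the authors' deposited table, and log2 ratios (mutant over control) were computed from its ratios. A gene was called when the authors' adjusted p, adjusted over all 17631 genes, was under 0.05. Runx2 itself (chromosome 17, 44495987 to 44814797, GRCm38) averaged 106 in control and 65.1 in mutant molars (adjusted p = 0.0646 in the authors' deposited table), and its value covers the whole gene and not only a deleted part. Gli1, the locus of the driver, was 1.95-fold lower in the authors' deposited table (adjusted p = 0.0228), a call that was lost when a trend on GC content and transcript length was subtracted (adjusted p = 0.0649, recomputed from the authors' p-values). Odontoblast and enamel genes were abundant, with Dspp at 7714 in control and 7360.0 in mutant molars and Ambn at 72752 in control and 53601 in mutant molars. Skeletal muscle markers were scarce, the 4 summing to 4.29 in control and 1.89 in mutant molars.

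Ligands of the superfamily are secreted dimers that bring type I and type II receptor kinases together at the cell surface. The activated type I receptor phosphorylates receptor-regulated SMADs, which join SMAD4 and enter the nucleus: SMAD1, SMAD5 and SMAD9 for BMPs, and SMAD2 and SMAD3 for TGF-beta and activin. Inhibitory SMADs, secreted antagonists and latent binding proteins hold the signal back or store it in the matrix. In teeth, BMP and TGF-beta signals pass between epithelium and mesenchyme and take part in odontoblast differentiation and root formation, and RUNX2 protein is known to act together with activated SMADs at bone genes.

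No member passed the threshold in either direction. Among all genes tested, 139 passed, which is 0.788% (0.471% higher and 0.318% lower in the mutant), so a list of this size would hold few calls at that rate. At an adjusted p under 0.1 there were 3 members, 1 higher and 2 lower, beside 3.64% of all genes (2.01% higher and 1.63% lower). Those 3 members were Bmpr2, Tgfb1 and Bmp4, with adjusted p-values of 0.0882, 0.0903 and 0.0907 in the authors' deposited table. No member passed either when the adjustment was taken over genes of a higher mean of 1 or more (1.19% called) or 10 or more (1.65%). At an unadjusted p under 0.05 there were 8 members, of which Bmpr2, Tgfb2 and Ltbp2 had higher means in the mutant and Bmp4, Tgfb1, Bmp7, Tgfbr3 and Smad3 had lower ones. These 8 are 18.2% of the 44, beside 19.3% of all genes at the same limit (9.89% higher and 9.4% lower) and 24.4% of the genes whose larger group mean reached 10. The share among the members thus lay near the background, and the 8 are given below as descriptions of level.

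Member means differed little between the groups. As many members (22) had a higher mean in the mutant as had a lower one (22) on the deposited scale, and the median log2 ratio was 0.00372, beside 0.00327 for all genes. Scaling both groups to the same total adds 0.137 to every log2 ratio. This puts 32 of the 44 members and 71.8% of all genes at a higher mean in the mutant. The directions of small differences thus depend on the scaling. The totals were 1050684 in control and 955256 in mutant molars. Most of that difference lies in the enamel genes Amelx (174946 in control and 112174 in mutant molars) and Ambn (72752 and 53601). The median absolute log2 ratio was 0.143 among members and 0.132 among genes whose larger group mean reached 10, a level that 41 of the 44 members reached. The members ranged from -0.44 for Bmp4 to 0.33 for Bmpr2. None exceeded 0.5 in absolute log2 ratio, as 315 of the 9307 genes at that level did.

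**Figure D1:**
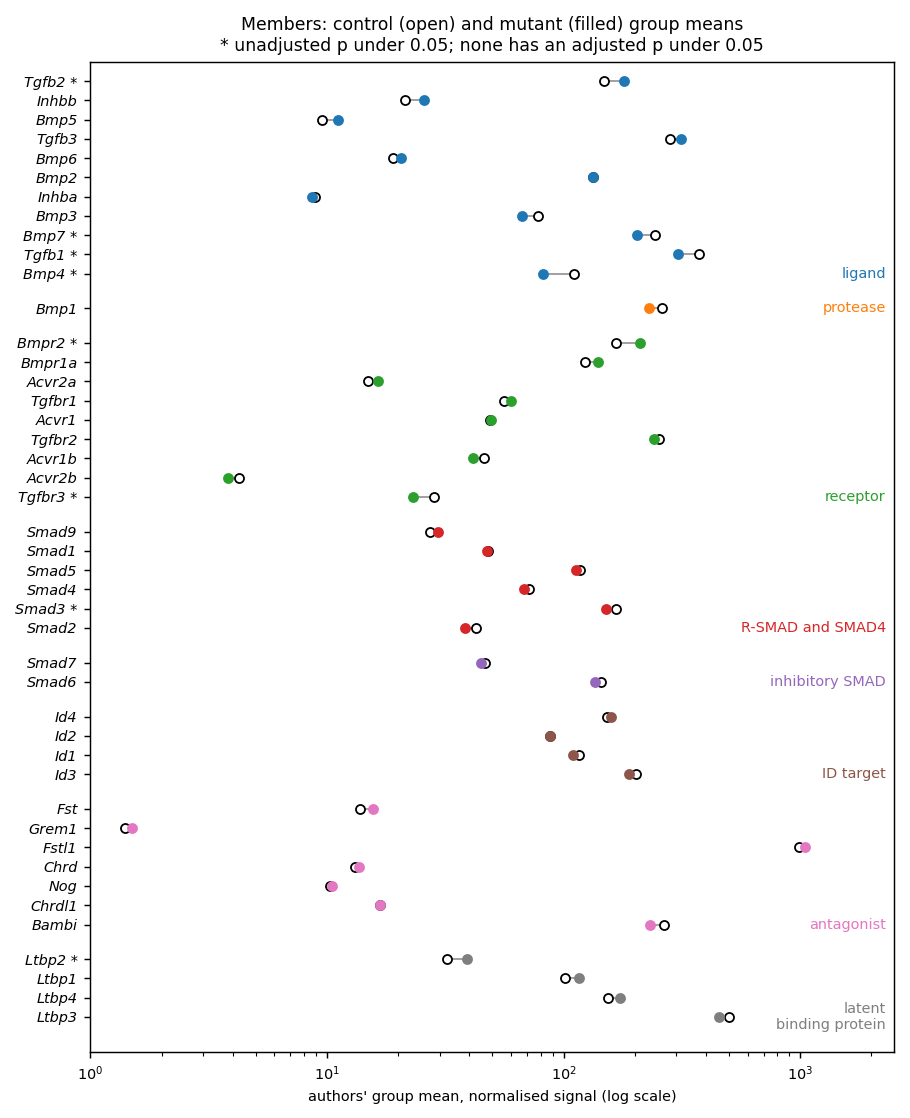
Authors' group means of normalised signal (log axis) for the 44 members, grouped by role, with the control as open circles and the mutant as filled circles. No error bars are drawn because the table holds no values per library. The pairs lie close together, with the widest gaps at Bmp4 (111 against 81.8) and Bmpr2 (167 against 210.4).

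**Figure D2:**
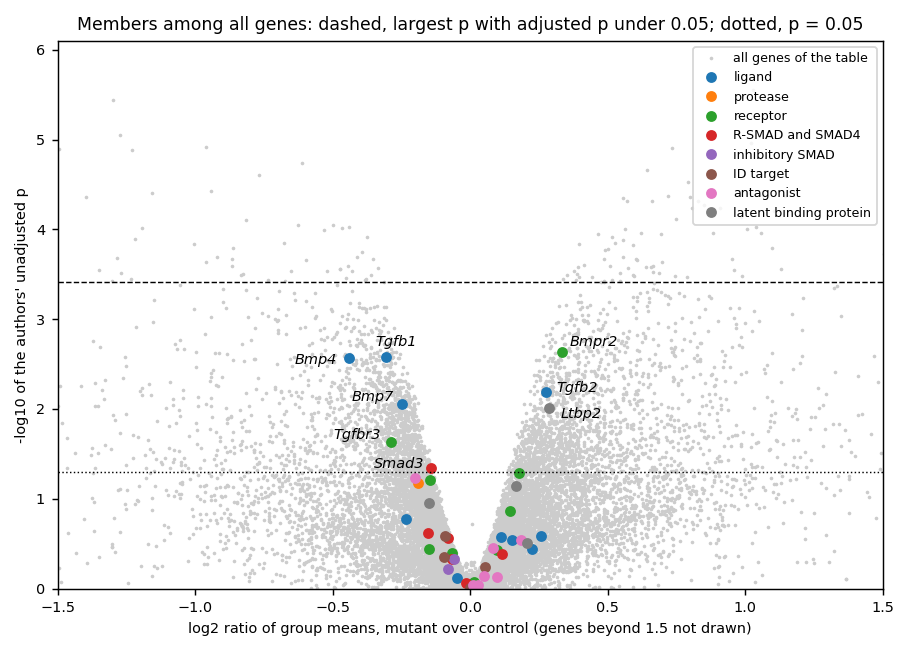
Log2 ratio of group means against -log10 of the authors' unadjusted p for the members (coloured by role) over all genes (grey). The 8 labelled members lie above the dotted line of the authors' p at 0.05, and none reaches the dashed line, the largest p among the 139 called genes.

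Among the ligands, the means of Bmp4, Bmp7 and Tgfb1 were lower in the mutant and that of Tgfb2 was higher, 4 of 11 genes at an unadjusted p under 0.05 (36.4%, beside 19.3% of all genes and 24.4% of those whose larger group mean reached 10). Scaling to the same total, which adds to every log2 ratio, left the 3 lower means lower. Bmp4, which encodes a BMP exchanged between tooth epithelium and mesenchyme (chromosome 14, 46383520 to 46390669), had group means of 111 in control and 81.8 in mutant molars. This is 1.36-fold lower, the greatest fold among the 44 members (log2 ratio -0.44, and by the authors' deposited table p = 0.00273, adjusted p = 0.0907). An antisense gene, Gm15217, overlaps its exons and was nearly silent (0.217 and 0.120). Bmp7, another BMP of developing teeth and bone (chromosome 2, 172868012 to 172940321), averaged 244 in control and 205 in mutant molars (log2 ratio -0.25, and by the authors' deposited table p = 0.00891, adjusted p = 0.135). Bmp2, the close relative of Bmp4, had nearly equal means, 133 in control and 134 in mutant molars (log2 ratio 0.01, and by the authors' deposited table p = 0.878, adjusted p = 0.947). Within a group, the ratio of Bmp4 to Bmp2 stood at 0.612 in the mutant and 0.838 in the control. No scaling between the groups can alter it, but it uses means not divided by length. Per kb of exonic length, Bmp4 stood at 49.5 in control and 36.4 in mutant molars, and Bmp2 at 37.3 and 37.6. Without values per library the ratio of Bmp4 to Bmp2 has no test.

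Of the 3 TGF-beta isoforms, Tgfb1 had a lower mean in the mutant and Tgfb2 and Tgfb3 higher ones, while their sum was similar in both groups. Tgfb1 (chromosome 7, 25687002 to 25705077) averaged 375 in control and 303 in mutant molars, 1.24-fold lower (log2 ratio -0.31, and by the authors' deposited table p = 0.00264, adjusted p = 0.0903). Tgfb2 (chromosome 1, 186622792 to 186705989) averaged 149 in control and 180.0 in mutant molars, 1.21-fold higher (log2 ratio 0.27, and by the authors' deposited table p = 0.00654, adjusted p = 0.120). Tgfb3, the ligand with the highest level per kb of exonic length, averaged 281 in control and 312 in mutant molars (log2 ratio 0.15, and by the authors' deposited table p = 0.287, adjusted p = 0.565). Summed over the isoforms, the deposited signal reached 796 in the mutant and 805 in the control. The ratio of Tgfb1 to Tgfb2, from means not divided by length, stood at 1.68 in the mutant and 2.52 in the control. The balance within the mutant group thus lay 1.50-fold further toward Tgfb2. The 2 genes were picked for this ratio after their values were seen, and the difference was not tested.

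The remaining ligands did not reach an unadjusted p of 0.05. Bmp3, whose product opposes other BMPs through activin receptors, averaged 78.2 in control and 66.5 in mutant molars (log2 ratio -0.23). Bmp5 stood at 9.55 in control and 11.2 in mutant molars and Bmp6 at 19.1 in control and 20.6 in mutant molars, with log2 ratios of 0.22 and 0.11. The exons of Bmp6 overlap those of the abundant gene Txndc5 on the opposite strand (333 and 313), and whether counting used the strand is unknown, so the Bmp6 values are uncertain. The activin subunit genes Inhba and Inhbb had log2 ratios of -0.05 and 0.26, from control means of 8.93 and 21.5. Bmp1, which despite its name encodes a metalloprotease that cleaves procollagens and the BMP antagonist chordin, averaged 261 in control and 229 in mutant molars (log2 ratio -0.19, and by the authors' deposited table p = 0.0662, adjusted p = 0.290).

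Bmp4, Tgfb1 and Tgfb2 are shown by the bases just before their start sites, as the ligands with the lowest p-values. The sequences are from RefSeq on GRCm38.p6, are written 5′ to 3′ on the strand of the gene, and cover the 250 bases before the annotated start. Bmp7 has no entry in that table. Capitals mark the motifs searched on both strands: CAGAC (a SMAD box), GGCGCC (a GC-rich SMAD element, the same on both strands) and TGTGGT (the core of RUNX sites, added after the values were seen). The windows are chr14:46390670-46390919 (minus strand) for Bmp4, chr7:25686752-25687001 (plus strand) for Tgfb1 and chr1:186705990-186706239 (minus strand) for Tgfb2.
Bmp4: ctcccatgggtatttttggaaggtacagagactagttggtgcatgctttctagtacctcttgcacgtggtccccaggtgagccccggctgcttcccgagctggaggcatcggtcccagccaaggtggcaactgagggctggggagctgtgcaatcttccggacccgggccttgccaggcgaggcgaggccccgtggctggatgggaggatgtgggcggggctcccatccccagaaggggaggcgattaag
Tgfb1: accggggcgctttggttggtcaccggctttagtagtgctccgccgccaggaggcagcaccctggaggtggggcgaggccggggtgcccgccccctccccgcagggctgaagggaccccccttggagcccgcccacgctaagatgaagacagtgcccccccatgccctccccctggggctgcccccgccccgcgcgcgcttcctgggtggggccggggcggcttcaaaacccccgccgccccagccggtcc
Tgfb2: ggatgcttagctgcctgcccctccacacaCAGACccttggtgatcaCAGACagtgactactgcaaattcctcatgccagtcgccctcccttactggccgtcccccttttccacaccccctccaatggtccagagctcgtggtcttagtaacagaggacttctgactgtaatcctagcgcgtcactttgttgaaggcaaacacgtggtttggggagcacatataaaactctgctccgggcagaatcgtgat
The Tgfb2 window holds CAGAC at 2 places, starting 221 and 204 bases before the start site, and none of the 3 motifs is in the windows of Bmp4 and Tgfb1. GC content was 75.2% in the Tgfb1 window, 63.2% in that of Bmp4 and 53.6% in that of Tgfb2. Of the 27025 windows of this length in the table, 1 a gene, 42.1% hold CAGAC, 9.54% hold GGCGCC and 14.2% hold TGTGGT. Among the 12057 windows of genes in the deposited table, these shares were 40.9%, 16.3% and 10.7%. Of the 30 members with an entry, 11 hold CAGAC, 8 hold GGCGCC and 0 hold TGTGGT. These are matches of letters and not sites shown to be bound. The Tgfb2 window overlaps an exon of the antisense gene Gm29491 in GENCODE M21, and no annotated exon lies in the other 2 windows.

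Receptor genes were split, with 5 of 9 measured members at a higher mean and 4 at a lower mean in the mutant (6 higher when scaled to the same total). Across all genes the log2 ratio followed the GC content and length of transcripts, and with that trend subtracted 2 receptor genes were higher and 7 lower. Bmpr2, the type II receptor for BMPs (chromosome 1, 59763400 to 59879014), averaged 167 in control and 210.4 in mutant molars, 1.26-fold higher (log2 ratio 0.33, and by the authors' deposited table p = 0.00231, adjusted p = 0.0882). Its transcript is long and poor in GC (17983 exonic bases, 39.6% GC), and after the subtraction its log2 ratio was -0.01. The adjusted p was then 0.659, recomputed from the authors' p-values by a separate fit that does not test this log2 ratio. Bmpr1a, a type I receptor for BMPs, averaged 123 in control and 139 in mutant molars (log2 ratio 0.18, and by the authors' deposited table p = 0.0516, adjusted p = 0.263). Tgfbr3, which encodes the co-receptor betaglycan (chromosome 5, 107106570 to 107289629), averaged 28.3 in control and 23.2 in mutant molars, 1.22-fold lower (log2 ratio -0.29, and by the authors' deposited table p = 0.0236, adjusted p = 0.192), and stood at -0.31 after the subtraction. Tgfbr2, the TGF-beta type II receptor and the receptor gene with the highest level per kb, averaged 253 in control and 242 in mutant molars (log2 ratio -0.07, and by the authors' deposited table p = 0.401, adjusted p = 0.666).

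The other receptor genes lay between log2 ratios of -0.15 and 0.14. The type I receptors Tgfbr1 (means 56.0 in control and 59.9 in mutant molars), Acvr1 (48.9 and 49.4) and Acvr1b (45.9 and 41.5) had log2 ratios of 0.10, 0.01 and -0.15. The activin type II receptors were the scarcest, with Acvr2a at 14.9 in control and 16.4 in mutant molars and Acvr2b at 4.25 in control and 3.83 in mutant molars. Exons of Acvr2a overlap those of Orc4 on the opposite strand, which leaves its values uncertain in the same way.

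The intracellular SMAD genes had similar means in both groups. Of the 6 receptor-regulated and common SMADs, 5 had a lower mean in the mutant, with a median log2 ratio of -0.07, but scaled to the same total 4 of the 6 were higher. Smad3 (chromosome 9, 63646767 to 63757994), the TGF-beta and activin SMAD with the highest level per kb of these 6, averaged 167 in control and 151 in mutant molars (log2 ratio -0.14, and by the authors' deposited table p = 0.0451, adjusted p = 0.249). Scaled to the same total, its log2 ratio was -0.00475. Smad2, its close relative and the member of this role with the largest absolute log2 ratio, averaged 42.8 in control and 38.4 in mutant molars (log2 ratio -0.15, and by the authors' deposited table p = 0.241, adjusted p = 0.522). The ratio of Smad3 to Smad2, from means not divided by length, stood at 3.93 in the mutant and 3.90 in the control. The BMP SMADs Smad1, Smad5 and Smad9 had log2 ratios of -0.01, -0.07 and 0.12, and the shared partner Smad4 -0.08. The inhibitory SMADs, which are themselves induced by the pathway, averaged 144 in control and 136 in mutant molars for Smad6 (log2 ratio -0.08, and by the authors' deposited table p = 0.607, adjusted p = 0.809) and 46.7 in control and 44.8 in mutant molars for Smad7 (log2 ratio -0.06, and by the authors' deposited table p = 0.475, adjusted p = 0.721). Both lay higher in the mutant when scaled to the same total or after the GC and length subtraction.

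The ID genes encode helix-loop-helix proteins without a DNA-binding region and are direct targets of BMP SMADs. None of the 4 reached an unadjusted p of 0.05. Id3, with the highest level per kb and the largest absolute log2 ratio of the role, averaged 203 in control and 189.8 in mutant molars (log2 ratio -0.09, and by the authors' deposited table p = 0.441, adjusted p = 0.697). Id1 stood at 116 in control and 109 in mutant molars (log2 ratio -0.09, and by the authors' deposited table p = 0.259, adjusted p = 0.538). Id2 averaged 87.8 in control and 87.7 in mutant molars (log2 ratio -0.00178) and Id4 153 in control and 159 in mutant molars (log2 ratio 0.06). Summed over the 4 genes, the signal reached 546 in the mutant and 560.2 in the control. As deposited 1 of the 4 had a higher mean in the mutant, scaled to the same total all 4 did. A p that misses the threshold does not show that the ID genes were equal, and no interval can be given without values per library.

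All 6 secreted antagonist genes had slightly higher means in the mutant, and none reached an unadjusted p of 0.05. Across all genes, 50.6% had a higher mean in the mutant. Their log2 ratios ran from 0.00923 for Chrdl1 to 0.18 for Fst. In the control, the BMP-binding Nog and Chrd and the activin-binding Fst lay near the median of all genes (10.8). Nog averaged 10.3 in control and 10.5 in mutant molars, Chrd 13.1 in control and 13.6 in mutant molars. Fst averaged 13.8 in control and 15.6 in mutant molars. The BMP-binding Grem1 was lower, at 1.41 in control and 1.51 in mutant molars. Fstl1, a secreted glycoprotein of mesenchyme, had the highest level per kb of all members, with means of 984 in control and 1043 in mutant molars (log2 ratio 0.08, and by the authors' deposited table p = 0.358, adjusted p = 0.630). Bambi, a membrane pseudoreceptor that lacks the kinase and dampens signalling, was the 1 member of this role with a lower mean, 266 in control and 232 in mutant molars (log2 ratio -0.20, and by the authors' deposited table p = 0.0588, adjusted p = 0.277). After the GC and length subtraction Bambi stood at -0.32 (p = 0.00844 and adjusted p = 0.228, recomputed from the authors' p-values), and the signs of Grem1 and Chrdl1 changed (-0.00467 and -0.14).

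Latent TGF-beta binding proteins fix latent ligand to fibrillin microfibrils, except that LTBP2 does not bind the latent ligand and is part of the microfibril itself. Of the 4 genes, 3 had a higher mean in the mutant. Ltbp2 (chromosome 12, 84783212 to 84876532) averaged 32.1 in control and 39.2 in mutant molars, 1.22-fold higher (log2 ratio 0.29, and by the authors' deposited table p = 0.00965, adjusted p = 0.139), and its log2 ratio was 0.36 after the subtraction (adjusted p = 0.145, recomputed from the authors' p-values). Ltbp4 averaged 155 in control and 174 in mutant molars (log2 ratio 0.17, and by the authors' deposited table p = 0.0713, adjusted p = 0.299) and Ltbp1 101 in control and 117 in mutant molars (log2 ratio 0.20, and by the authors' deposited table p = 0.309, adjusted p = 0.587). Ltbp3, the most abundant per kb, was on the other side with 501 in control and 452 in mutant molars (log2 ratio -0.15, and by the authors' deposited table p = 0.111, adjusted p = 0.358). The Ltbp3 values are uncertain where counting did not use the strand. The ratio of Ltbp3 to Ltbp2, from means not divided by length, stood at 11.5 in the mutant and 15.6 in the control. This difference was not tested and shares the uncertainty of Ltbp3.

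Levels can be ordered between genes only per length. The deposited means are not stated to be divided by gene length and were larger for longer genes, from a median of 11.9 in the mutant for the shortest eighth of protein-coding genes to 34.8 for the longest, so they were divided by exonic length. On this scale, as the average of both groups, Fstl1 stood highest at 206 per kb, followed by Id3 at 109.6, Id1 at 97.4, Tgfb3 at 87.7 and Tgfb1 at 67.3. Among BMP ligands the order was Bmp7 (55.8 per kb), Bmp4 (42.9), Bmp2 (37.5), Bmp3 (9.78), Bmp6 (5.09) and Bmp5 (2.57). Grem1 was the lowest member at 0.351 per kb. Without a spread between libraries, no neighbours in this order can be said to differ. Without division by length, Tgfb1 and not Tgfb3 led the ligands, and the leading member of each other role stayed the same.

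Log2 ratios across the table were lower at higher transcript GC content. Across the 44 members the log2 ratio had r = -0.23 with GC content and r = 0.23 with log2 exonic length, while across 13128 protein-coding genes r was -0.40 and 0.23. These are descriptions across genes that share the same 8 libraries. Of the 22 members poorer in GC, 14 had a higher mean in the mutant, and of the 22 richer in GC, 8 did. When the trend of all genes was subtracted, no member passed an adjusted p of 0.05, and 0.199% of the 17562 genes with a GC value did. At an unadjusted p under 0.05 there were then 9 of 44 members, beside 13.2% of all genes: Ltbp2, Bambi, Ltbp4, Tgfb2, Tgfb1, Tgfbr3, Bmp4, Inhbb and Bmp3. The 9 are no independent finding, since the same p-values enter both forms. By log2 ratio, which was fitted separately from the p-values, Bmp4 then stood at -0.35, Tgfb1 at -0.23 and Tgfb2 at 0.22, while Bmpr2 was near 0. Afterwards the members had a relation to GC of the opposite sign (r = 0.39). Whether GC content had a part in any single value was not tested.

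**Figure D3:**
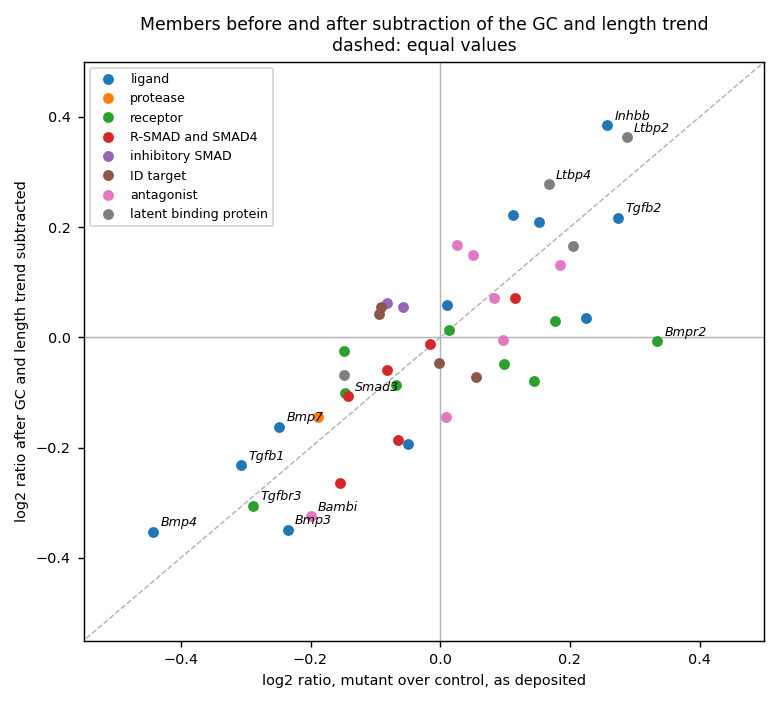
Log2 ratio (mutant over control) of each member as deposited (horizontal axis) and after the trend of all genes on GC content and exonic length was subtracted (vertical axis), coloured by role. Bmp4, Tgfb1, Tgfb2, Ltbp2 and Tgfbr3 keep their side, and Bmpr2 goes from 0.33 to -0.01.

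A wider list of 95 superfamily genes and partners, 84 of them in the table, gave 1 call, beside 0.788% of all genes called. The osteoblast transcription factor gene Sp7, listed there as a SMAD-responsive gene and also an osteoblast marker, fell 1.31-fold, from 155 to 118, with an adjusted p of 0.0447 in the authors' deposited table, and none rose. At an unadjusted p under 0.05 there were 17 genes, 9 higher and 8 lower, 20.2% beside 19.3% of all genes. The 8 lower genes include Runx2, the gene targeted in the mutant. The median log2 ratio was 0.00833, and 42 genes lay on each side (56 higher when scaled to the same total). After the GC and length subtraction Sp7 stood at -0.31 without its call (adjusted p = 0.161, recomputed from the authors' p-values).

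Of 14 genes for proteases and for proteins that hold or activate latent TGF-beta in the matrix, 8 had a higher mean in the mutant and 6 a lower one. An unadjusted p under 0.05 was found for 4 (28.6%, beside 19.3% of all genes and 24.4% of those whose larger group mean reached 10), all with higher means in the mutant. A larger mean of 10 was reached by 12 of the 14 genes, and Itgb8, counted among the 4, did not reach it. Itgb8, whose integrin activates latent TGF-beta, averaged 3.64 in control and 6.58 in mutant molars (log2 ratio 0.85, and by the authors' deposited table adjusted p = 0.0646). Thbs1, which encodes the TGF-beta-activating matrix protein thrombospondin 1, averaged 140.4 in control and 234 in mutant molars (log2 ratio 0.74, and by the authors' deposited table adjusted p = 0.173). The microfibril gene Fbn2 averaged 305 in control and 437 in mutant molars (log2 ratio 0.52, and by the authors' deposited table adjusted p = 0.0888), and Fbn1, named after its values were seen, 296 in control and 387 in mutant molars (log2 ratio 0.39, and by the authors' deposited table adjusted p = 0.182). After the subtraction these 4 stood at 0.67, 0.72, 0.48 and 0.36. None passed over all genes in either form.

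Among the other ligands, Gdf10, a relative of Bmp3, averaged 4.50 in control and 7.46 in mutant molars (log2 ratio 0.73, and by the authors' deposited table adjusted p = 0.150). The BMP-class ligands Gdf5 and Gdf7 had log2 ratios of -0.47 and -0.31, from control means of 10.9 and 5.59, and Gdf7 went to 0.08 after the subtraction. Among receptors and co-receptors, Amhr2 (log2 ratio -0.60), Tmem100 (0.41) and the BMP co-receptor gene Rgma (0.33) had the lowest p-values, with adjusted p-values of 0.167, 0.221 and 0.304 in the authors' deposited table. Tmem100 is known from endothelial cells, and all 4 endothelial markers together summed to 208 in the mutant and 186 in the control, with 3 of 4 higher. Their part in the Tmem100 value was not tested.

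Of the 16 extracellular modulators measured, the BMP-binding Tsku averaged 175 in control and 137 in mutant molars (log2 ratio -0.35, and by the authors' deposited table adjusted p = 0.0903). Twsg1, which acts with chordin, averaged 135 in control and 161 in mutant molars (log2 ratio 0.25, and by the authors' deposited table adjusted p = 0.109). The activin-binding Fstl3 averaged 25.4 in control and 17.8 in mutant molars (log2 ratio -0.51, and by the authors' deposited table adjusted p = 0.125). SMAD partners and ubiquitin ligases were the closest to equal of the 6 classes, with a median absolute log2 ratio of 0.0574 over 19 genes. All 19 had a larger group mean of at least 10. In the other classes this ranged from 3 of 14 (ligands) to 13 of 14 (SMAD-responsive genes), so the classes are not matched for level. Of the 19, the corepressor genes Tgif1 and Ski had log2 ratios of -0.22 and 0.19 and the ubiquitin ligase gene Wwp1 0.17. Their adjusted p-values were 0.205, 0.226 and 0.324 in the authors' deposited table. Of the 14 SMAD-responsive genes, 6 had a higher mean in the mutant and 8 a lower one, with a median log2 ratio of -0.11. The 8 include Runx2 itself, which the design targets. Besides Sp7 and Runx2, both lower, the rule named Snai2, with a log2 ratio of 0.18 (adjusted p = 0.230 in the authors' deposited table).

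**Figure D4:**
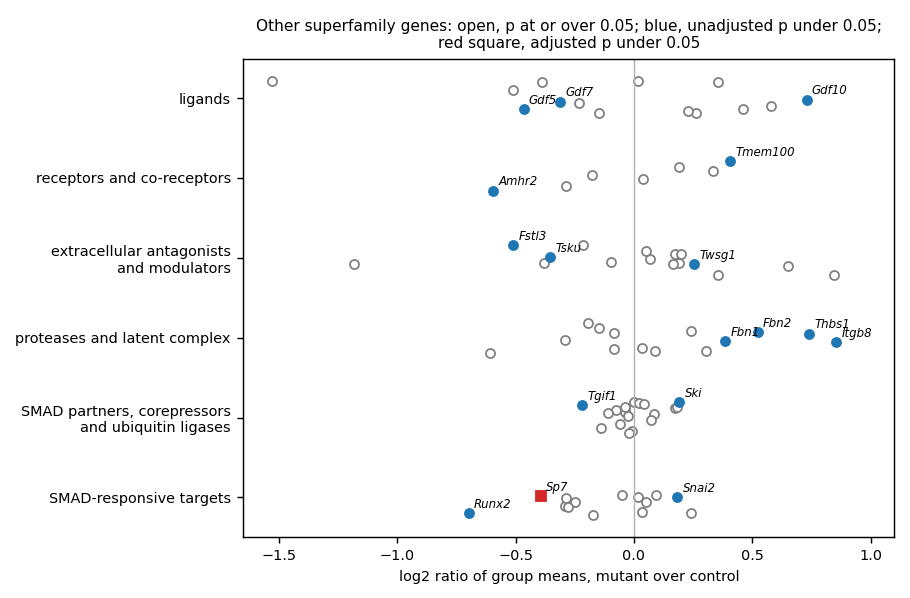
Log2 ratio (mutant over control) of the 84 other superfamily genes by class, each point 1 gene, with filled points for an unadjusted p under 0.05 and a red square for an adjusted p under 0.05. The 4 filled points among proteases and latent complex genes all lie to the right of 0, and Sp7 is the 1 red square.

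Markers of several cell types were also compared between the groups (sums are given for the mutant first). The 6 osteoblast markers all had lower means in the mutant and summed to 2526 against 3858 in the control, with Sp7 and Bglap past the threshold, and the 6 erythroid markers all had lower means and summed to 425 against 944, with Hba-a1 past it. The dental mesenchyme markers all had higher means (5 of 5, sums of 308 and 266), beside 50.6% of all genes, with Prrx1 past the threshold. Prrx1 averaged 49.0 in control and 79.4 in mutant molars. Pax9, Msx1, Lhx6 and Lhx8 did not reach an unadjusted p of 0.05. After the GC and length subtraction no marker of any list kept a call, with adjusted p-values, recomputed from the authors' p-values, of 0.253 for Prrx1, 0.334 for Bglap and 0.324 for Hba-a1. Macrophage markers summed to 188 and 171, osteoclast markers to 127 and 142 and nerve markers to 76.8 and 95.3. Odontoblast markers summed to 8547 and 8889, and epithelial and ameloblast markers to 177937 and 261212, mostly Amelx and Ambn. For Amelx and Ambn, p was 0.181 and 0.222 in the authors' deposited table. No odontoblast, epithelial, ameloblast, osteoclast or nerve marker reached an unadjusted p of 0.05. In these bulk samples fewer cells of a type and less RNA per cell cannot be told apart. The part of these markers in the values of Bmp4, Bmp7, Tgfb1 and the other members was not tested.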

How the data were processed

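RNA-seq libraries of 4 control and 4 mutant molar samples entered 1 deposited table of group values. The submitters' processing notes list STAR 2.6.1d, Partek and mm10, with no role for any of them. Counting, normalisation, filtering and test model were not given in the sources used here. The table's columns are headed as a gene-specific comparison of KO with WT. The authors' group means are normalised signal values. The total column equals 4 times their sum (relative tolerance 1e-06), so it is no raw count. The deposited ratio is the mutant over the control mean, the authors' signed fold change is a score restating it, and the deposited adjusted p-values equal the Benjamini-Hochberg adjustment of the deposited p-values over 17631 genes. The planned use of values per library and of replicate numbers was not possible, and the depth of each library is unknown. Promoter windows came from RefSeq (GRCm38.p6).

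Members and lists were chosen with earlier results of these data known. All members were accounted for, with full values for members with an unadjusted p under 0.05, the highest per kb and the largest absolute log2 ratio (higher mean at least 1) in each role. For other superfamily genes, called genes and the 3 of lowest p in each class were named, and Runx2 and Gli1 as checks. Fbn1 was added after its values were seen. GENCODE M21 (GRCm38) matched 17562 genes (99.6%) and gave positions, exonic length and GC content. The GC and length trend was fitted over 13128 protein-coding genes with mgcv 1.9.3 (R 4.3.3), separately for the log2 ratio and for signed z. Signed z is the authors' p-value turned into a normal score with the sign of the ratio. The trend took 18.9% of the variance of the log2 ratio and 25.9% of that of signed z. P-values after the subtraction come from the signed z fit alone and do not test the subtracted log2 ratios. The signed z fit was run on simulated data with planted shifts larger than the signed z of any member. That run therefore does not cover shifts of the members' size.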

Additional observations from a re-analysis of the deposited data

How the results depend on the processing

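No paired analysis was possible because the table holds group means only, and leaving out a library was not run for the same reason. No member was called in either direction with the authors' adjusted p under 0.05 (0.788% of all genes), with the adjustment taken over genes whose higher mean was at least 1 (1.19% called) or at least 10 (1.65%), or after the GC and length subtraction (0.199%). With an adjusted p under 0.1, 1 member was higher and 2 lower, and at an unadjusted p under 0.05, 3 and 5. The other superfamily genes had 0 higher and 1 lower call. These became 2 and 3 with an adjusted p under 0.1, and 9 and 8 at an unadjusted p under 0.05. Over genes of at least 10 there were 2 lower calls, as Runx2 (log2 ratio -0.70) reached an adjusted p of 0.0478, and after the subtraction 0. Runx2 is the gene targeted in the mutant. It is also among the 3 and the 8 lower genes above, and its lower mean is no result about the superfamily.

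Most of the difference between the group totals lies in Amelx and Ambn. Scaling both groups to the same total shifts every log2 ratio up by 0.137. It changed the sign of 10 of 44 members, all with a deposited size of at most 0.0948, and left Bmp4 at -0.31, Tgfb1 at -0.17 and Bmp7 at -0.11. A pseudocount of 1 and centring on the median gene changed the sign of no member. The GC and length subtraction changed the sign of 10: Bmpr2 (-0.00733), Acvr2a (-0.0785), Tgfbr1 (-0.0474), Smad6 (0.0617), Smad7 (0.0545), Id1 (0.0555), Id3 (0.0429), Id4 (-0.0710), Grem1 (-0.00467) and Chrdl1 (-0.145). Among other genes it changed Gdf7 (0.0810), Nbl1 (0.0887), Dcn (-0.168), Pcolce (0.0238), Itgav (-0.0215), Smurf1 (0.00818), Tgif2 (0.0393), Wwp1 (-0.119), Zfyve9 (-0.0255), Zfyve16 (-0.0576) and Tab1 (0.0160). The cause of these changes was not tested.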
